A study of Homo sapiens with 8 samples.

Results

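The 10 genes described here make, or break down, leukotrienes and prostanoids, the oxygenated lipid messengers derived from arachidonic acid. They are ALOX5, ALOX5AP, LTA4H and LTC4S of the leukotriene branch, ALOX12, the platelet 12-lipoxygenase, PTGS1, PTGS2, TBXAS1 and HPGDS of the prostanoid branch, and HPGD, which inactivates prostaglandins. A probe set was taken where the platform annotation names 1 of these genes alone, which gave 21 of the 54675 probe sets on the array. Of these, the probe set that stands for a gene was chosen by its mean log2(signal + 10) over all arrays, the highest being taken, and differences between groups played no part in that step. The genes themselves were picked as a pathway with earlier results of these data known. All 10, of 14162 genes tested, passed the filter on dim probe sets, for which 2 or more arrays had to exceed 60.0, the median signal.

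RNA was profiled on 8 Affymetrix arrays, 2 per group, in 4 groups that the labels all call HEL, an erythroleukaemia cell line whose JAK2 carries an activating mutation. Cells of the drug arm received 0.5 µM CEP701 (lestaurtinib, an inhibitor of JAK2 and FLT3) for 16 h, or the vehicle DMSO for 16 h. In the shRNA arm, HEL cells carried a scramble shRNA or an shRNA against PRMT5, an enzyme that methylates arginine residues of histones and other proteins; the latter was a stable line made with 1 shRNA in a pLKO lentivirus. The series sets the effect of the inhibitor beside that of PRMT5 depletion, and each has its own control. The labels do not say whether the 2 arrays of a group are separate cultures, and the p-values then rest on a spread between arrays that may be technical.

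5-Lipoxygenase, the product of ALOX5, works with its membrane partner ALOX5AP, which presents arachidonic acid to it, and makes the unstable intermediate leukotriene A4. LTA4H turns this into leukotriene B4, a neutrophil attractant, and LTC4S joins it to glutathione to give the cysteinyl leukotrienes of mast cells, basophils and eosinophils. The cyclooxygenases PTGS1 and PTGS2 make prostaglandin H2, from which TBXAS1 makes thromboxane in platelets and monocytes, and HPGDS makes prostaglandin D2 in mast cells and megakaryocytes. These genes are therefore read in several blood lineages at once, and HEL is known for its mixed erythroid and megakaryocytic character.

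The arms stood apart before any comparison within them. Over all 14162 genes, log2 signals of arrays from different arms correlated at r = 0.804 to 0.845, against 0.964 to 0.978 within a group. Markers of monocytes and granulocytes summed to signals of 5781 to 9635 on the drug arrays and 68974 to 110310 on the shRNA arrays. Of that list, 12 of 13 genes passed the filter, FCGR1A did not, and CD14, S100A9, MPO and ELANE read between 2.09 and 63.5 on the drug arrays. LYZ, at 5252 to 8863, made up most of the sum on the drug arrays, and ITGAM read 157 to 355 there. Megakaryocyte markers summed to 14915 to 16282 and 50011 to 119193, and eosinophil markers to 1560 to 3092 and 33673 to 52956. Most of the megakaryocyte sum on the shRNA arrays was PF4 and PPBP, at 25549 and 26323 on scramble replicate 1. Of the 10 megakaryocyte markers tested, 4 passed as higher with scramble than with DMSO and 1, TREML1, as lower (−1.25). GP9, GP6 and SELP had small negative differences that did not pass. PRMT5 itself, at its brightest probe set, read 1794 and 984 with the scramble shRNA and 664 and 315 with the shRNA against PRMT5, or 35.2% of the scramble mean. This knockdown missed the threshold in the limma fit of the 4 groups (log2 difference −1.52, SE 0.35, adjusted p = 0.217) and passed it with the shared title suffix of the shRNA arrays as a block (adjusted p = 8.91e-05). At the other PRMT5 probe sets the signal was 41.7% and 45.8% of the scramble mean. With DMSO the brightest probe set read 3419 and 3221, above both scramble arrays (scramble minus DMSO −1.31, adjusted p = 0.0120 in the limma fit). That difference ran from −1.74 to −0.88 when an array was left out.

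Among the members, HPGDS, ALOX5AP and PTGS2 differed most between the arms, so the promoters of these 3 genes are shown, as windows from 250 bases before to 50 bases from the RefSeq start site on (GRCh38.p14). Capitals mark matches, on either strand, to 5 motifs: GATAA, the core bound by GATA factors; GGAAGT, bound by ETS factors such as SPI1; TTNNGCAAT, bound by C/EBP factors; CGTCA, bound by CREB and ATF factors; and TATAAA, the TATA box. The HPGDS window is chr4:94342787-94343086 on the minus strand, that of ALOX5AP chr13:30713235-30713534 on the plus strand, and that of PTGS2 chr1:186680374-186680673 on the minus strand.
HPGDS: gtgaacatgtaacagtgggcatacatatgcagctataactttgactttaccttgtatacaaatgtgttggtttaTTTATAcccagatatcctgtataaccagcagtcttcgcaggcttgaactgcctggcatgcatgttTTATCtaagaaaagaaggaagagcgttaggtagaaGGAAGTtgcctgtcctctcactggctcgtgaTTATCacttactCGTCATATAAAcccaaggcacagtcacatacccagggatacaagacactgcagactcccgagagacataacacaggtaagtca
ALOX5AP: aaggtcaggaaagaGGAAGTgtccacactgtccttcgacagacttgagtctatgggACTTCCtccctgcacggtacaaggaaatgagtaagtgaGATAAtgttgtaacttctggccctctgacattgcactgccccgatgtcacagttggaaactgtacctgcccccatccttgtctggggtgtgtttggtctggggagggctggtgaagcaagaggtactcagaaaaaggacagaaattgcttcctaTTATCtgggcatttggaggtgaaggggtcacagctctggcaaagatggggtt
PTGS2: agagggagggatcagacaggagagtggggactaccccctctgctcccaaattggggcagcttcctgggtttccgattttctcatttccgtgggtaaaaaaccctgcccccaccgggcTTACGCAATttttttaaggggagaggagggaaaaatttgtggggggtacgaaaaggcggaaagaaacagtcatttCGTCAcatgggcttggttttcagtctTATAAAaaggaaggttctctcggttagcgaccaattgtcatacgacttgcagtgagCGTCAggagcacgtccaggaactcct
The HPGDS window held GATAA at −111 and −45, counted from the start site and read on the opposite strand, GGAAGT at −76, and CGTCA at −33 running straight into TATAAA at −28. Another TATAAA match lay at −176 on the opposite strand. That of ALOX5AP held GATAA and GGAAGT but no TATAAA. PTGS2 had TTNNGCAAT at −133, CGTCA at −58 and 24, and TATAAA at −32, but neither GATAA nor GGAAGT. The HPGDS and ALOX5AP windows thus share GATAA and GGAAGT, and the HPGDS and PTGS2 windows share a TATA box next to or near CGTCA. Over the 35116 promoters of the same length in the table, 22.74% held GATAA, 22.79% GGAAGT, 2.309% TTNNGCAAT, 24.55% CGTCA and 11.53% TATAAA. Among the 9 members with a promoter in the table, 4 held GATAA, 7 GGAAGT, 1 TTNNGCAAT, 3 CGTCA and 4 TATAAA in at least 1 entry. A match is a description of the letters and was not tested as a binding site.

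With CEP701, ALOX5 rose 3.34-fold against DMSO and was the only member to pass the threshold. Its partner ALOX5AP and the cysteinyl leukotriene synthase LTC4S had higher signals on both CEP701 arrays than on both DMSO arrays, and the cyclooxygenase PTGS2, TBXAS1 and HPGDS overlapped between the groups. The ALOX5 signals were 220 and 218 with DMSO and 719 and 792 with CEP701. The groups lay far apart relative to their spread, with means of 219 ± 1.72 and 756 ± 51.0 (SD, n = 2). On the log2(signal + 10) scale the difference was 1.74 (SE 0.21, 95% interval 1.26 to 2.22, adjusted p = 0.00539 in limma with Benjamini-Hochberg adjustment over all genes). In this comparison 5.78% of all genes passed, 3.74% as higher and 2.04% as lower, and ALOX5 ranked 39 by unadjusted p. The call was lost without any 1 of the 4 drug-arm arrays, at adjusted p = 0.0572 without DMSO replicate 1, 0.0743 without DMSO replicate 2, 0.0753 without CEP701 replicate 1 and 0.0842 without CEP701 replicate 2. In bulk RNA, more cells of a kind that reads ALOX5 and more ALOX5 RNA per cell cannot be told apart.

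**Figure D1:**
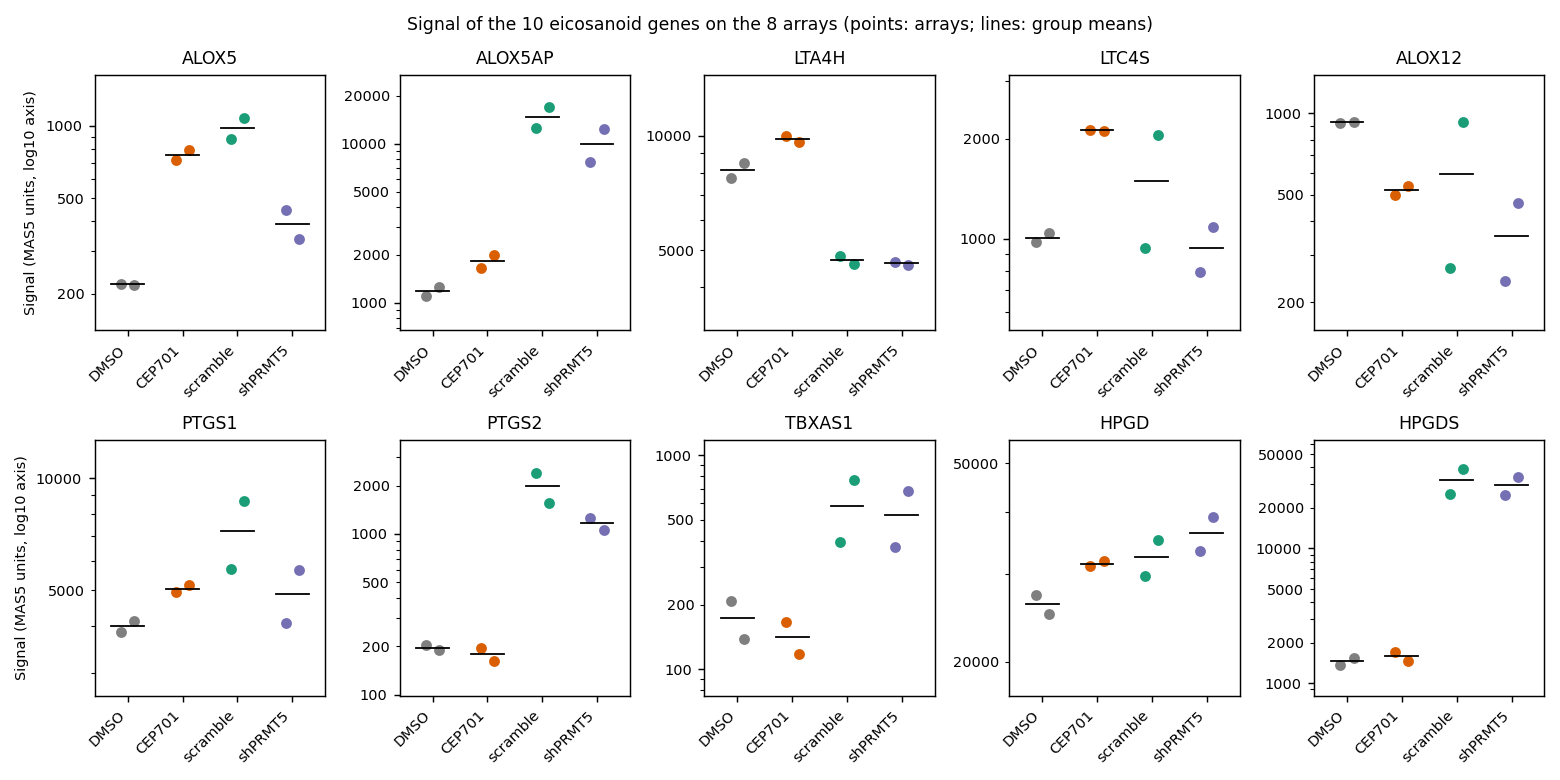
Deposited signal on each of the 8 arrays for the 10 genes, on a log axis, with a bar at the mean of the 2 arrays of a group. ALOX5 is higher with CEP701 than with DMSO and lower with the shRNA against PRMT5 than with scramble, and HPGDS, ALOX5AP and PTGS2 separate the arms.

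LTC4S, which makes leukotriene C4, read 978 and 1037 with DMSO and 2129 and 2115 with CEP701. The arrays agreed closely within each drug group and did not overlap, at a log2 difference of 1.07 (SE 0.32, adjusted p = 0.0797). ALOX5AP read 1101 and 1266 with DMSO and 1658 and 1994 with CEP701, a log2 difference of 0.62 (SE 0.24, adjusted p = 0.151). Neither gene passed in the fit of all 8 arrays, whose spread includes the wide shRNA replicates. LTA4H, the hydrolase that gives leukotriene B4, read 7769 and 8492 with DMSO and 9967 and 9651 with CEP701. This was 1 of the smaller differences, 0.27 (SE 0.12, adjusted p = 0.216), although the arrays did not overlap.

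ALOX12 was the 1 member whose signals were lower on both CEP701 arrays, at 498 and 540 against 924 and 929 with DMSO. Its log2 difference was −0.83 (SE 0.49, adjusted p = 0.342). The constitutive cyclooxygenase PTGS1 read 3873 and 4133 with DMSO and 4954 and 5156 with CEP701 (log2 difference 0.34, SE 0.22, adjusted p = 0.377). The inducible PTGS2 read 203 and 190 with DMSO and 196 and 161 with CEP701, groups that overlapped, with a 95% interval of the log2 difference from −0.69 to 0.41. TBXAS1, thromboxane synthase, also overlapped, at 208 and 138 with DMSO and 166 and 118 with CEP701. Its interval was −1.16 to 0.64. HPGD, the dehydrogenase that inactivates prostaglandins, read 27246 and 24948 with DMSO and 31050 and 31847 with CEP701, a log2 difference of 0.27 (adjusted p = 0.257). For HPGDS the signals of 1363 and 1543 with DMSO and 1710 and 1473 with CEP701 overlapped, and the interval was −0.36 to 0.62.

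Over the 10 members the median log2 difference with CEP701 was 0.27, beside 0.10 over all genes. In limma, 3 of the 10 members and 3400 of the 14162 genes had an unadjusted p under 0.05. Arrays did not overlap in 7 members, 6 of them higher and ALOX12 lower, where 36.3% of all genes were higher and 25.7% lower without overlap. For LTA4H, PTGS1, HPGD and HPGDS the sign depended on scaling: with arrays scaled to the poly-A control probe sets the differences were −0.23, −0.17, −0.23 and −0.37, and the median over all genes moved from 0.10 to −0.40. Relative to that median all 4 lay above it. When only the 4 drug arrays were fitted, 5 members passed: ALOX5 (adjusted p = 3.90e-04), LTC4S (3.87e-04), ALOX5AP (0.0107) and PTGS1 (0.0334) as higher, and ALOX12 (0.00392) as lower. In that fit 12.6% of all genes passed as higher and 10.1% as lower. The same 5 members passed with the block in the shRNA arm, where 12.6% and 9.71% of all genes did.

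Other markers moved in the drug arm beside these values. Mast cell and basophil markers summed to 57411 and 62284 with DMSO and 86884 and 85443 with CEP701. Of 8 tested genes only KIT passed in limma, as higher (6934 and 7327 to 28556 and 26450, adjusted p = 0.0261). CPA3 (0.57, adjusted p = 0.112) and HDC (0.39, adjusted p = 0.470) were also higher without overlap but did not pass. GATA2 (0.13) and FCER1A (0.07) overlapped. Most of the gain in the sum was KIT, and the list's median log2 difference was 0.10, as over all genes, with SIGLEC6 at −0.71 and TPSAB1 at −0.12. CMA1 signals were also lower, 62.0 and 47.0 with DMSO and 16.6 and 28.6 with CEP701 (adjusted p = 0.452). Of that list MRGPRX2 read between 2.73 and 7.54 on the drug arrays and TPSAB1 between 56.4 and 113. Eosinophil markers summed to 2738 and 3092 with DMSO and 1775 and 1560 with CEP701, where PRG2 fell (adjusted p = 0.0175). Monocyte and granulocyte markers summed to 5781 and 5915 with DMSO and 9635 and 8463 with CEP701. None of the 12 tested passed, at a median log2 difference of 0.45. LYZ, which makes up most of that sum, read 5293 and 5252, then 8863 and 7656 (adjusted p = 0.0839), ITGAM had a difference of 0.85 (adjusted p = 0.171), and AZU1 went the other way (−1.69, adjusted p = 0.0935). Of 8 erythroid markers EPOR rose (1.09, adjusted p = 0.0290). The actin 5′ to 3′ signal ratio, a sign of RNA integrity, was 0.199 and 0.198 with DMSO and 0.116 and 0.161 with CEP701, and that of GAPDH overlapped, at 0.882 and 0.809, then 0.787 and 0.856. The part of these in the ALOX5 and LTC4S values was not tested.

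With the shRNA against PRMT5, ALOX5, ALOX5AP, PTGS1 and PTGS2 had lower signals on both arrays than on both scramble arrays, but no member passed in the limma fit of the 4 groups. ALOX5 read 880 and 1079 with scramble and 444 and 338 with the shRNA against PRMT5, the opposite side of its control from the CEP701 arrays. Its means were 980 ± 141 and 391 ± 74.8 (SD, n = 2), a log2 difference of −1.31 (SE 0.21, 95% interval −1.79 to −0.83, adjusted p = 0.0742). With the title suffix that pairs the shRNA arrays as a block, ALOX5 fell with adjusted p = 0.00744. The within-pair log2 differences were −0.97 and −1.64.

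ALOX5AP signals were 12603 and 16892 with scramble and 7632 and 12382 with the shRNA against PRMT5. The arrays only just separated, at a log2 difference of −0.59 (SE 0.24, adjusted p = 0.702; 0.0427 with the block). PTGS1 read 5720 and 8703 with scramble and 4088 and 5660 with the shRNA, a log2 difference of −0.55 (SE 0.22, adjusted p = 0.688; 0.0177 with the block). Within pairs the differences were −0.72 and −0.45 for ALOX5AP and −0.48 and −0.62 for PTGS1, and the replicates of a group differed by 0.42 and 0.70 and by 0.60 and 0.47. The 2 pairs thus gave like differences, although arrays of a pair lay about as far apart as replicates. PTGS2 read 2407 and 1556 with scramble and 1263 and 1063 with the shRNA. It was lower without overlap, at −0.73 (SE 0.24, adjusted p = 0.545; 0.0805 with the block).

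The remaining members overlapped between the shRNA groups. LTC4S read 935 and 2056 with scramble and 793 and 1086 with the shRNA against PRMT5, a log2 difference of −0.57 (adjusted p = 0.809; 0.112 with the block). ALOX12 read 267 and 930 with scramble and 240 and 464 with the shRNA, and its interval ran from −1.67 to 0.54. In both genes scramble replicate 2 stood above the other 3 shRNA arrays. TBXAS1 read 392 and 769, then 373 and 683; HPGDS read 25587 and 38719, then 24907 and 34225. Both had the same low and high replicate in each group, and intervals of −1.02 to 0.78 and −0.60 to 0.38. LTA4H read 4836 and 4596 with scramble and 4669 and 4570 with the shRNA, and had the narrowest interval, −0.31 to 0.25. HPGD read 29689 and 35133 with scramble and 33397 and 38917 with the shRNA, a log2 difference of 0.16 (interval −0.15 to 0.46).

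In this comparison 0.148% of all genes passed, 0.00706% as higher and 0.141% as lower. An unadjusted p under 0.05 in limma was found for 4 members and for 948 of the 14162 genes. The median over the members was −0.56, beside 0.00 over all genes. Arrays did not overlap in 4 members, all lower, where 16.1% of all genes were lower and 14.1% higher without overlap. With the block in the shRNA arm, ALOX5, ALOX5AP and PTGS1 passed as lower, in a fit where 0.318% of all genes passed as higher and 1.43% as lower. ALOX5 also passed with 50 added before log2 (adjusted p = 0.0491) or with the mean of a gene's kept probe sets (0.0499), which for ALOX5 is the same single probe set. Monocyte and granulocyte markers summed to 93420 and 110310 with scramble and 68974 and 106733 with the shRNA against PRMT5, and eosinophil markers to 47928 and 52956, then 33673 and 39217. Mast cell and basophil markers summed to 106921 and 160824, then 85706 and 141122. Megakaryocyte and platelet markers summed to 63660 and 119193, then 50011 and 88782, at a median log2 difference of −0.41. The erythroid sums went the other way, 50821 and 37427, then 56906 and 39543 (median 0.09). No marker of these lists passed. The actin 5′ to 3′ ratio was 0.141 and 0.179 with scramble and 0.187 and 0.335 with the shRNA, and that of GAPDH went the other way, at 0.846 and 0.883, then 0.729 and 0.778. Their part in the ALOX5 values was not tested.

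**Figure D2:**
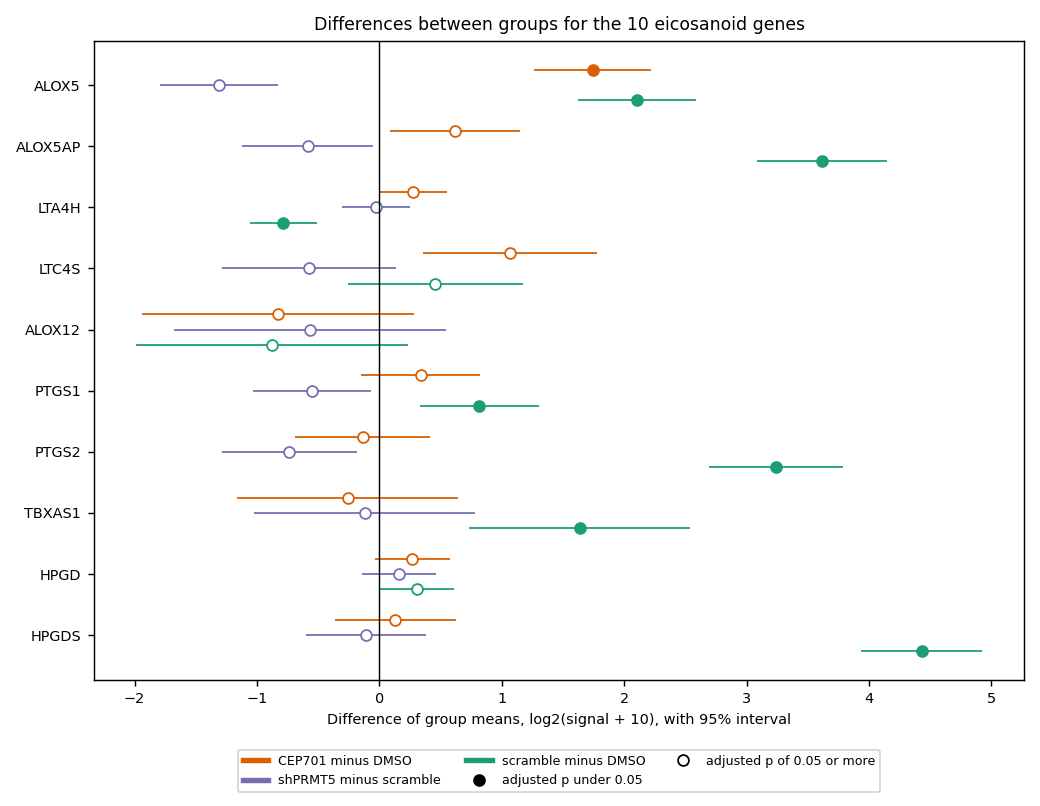
Log2 differences of group means with 95% intervals for the 10 genes in 3 comparisons, with filled points where the adjusted p was under 0.05. The intervals of ALOX5 (1.74 with CEP701, −1.31 with the shRNA against PRMT5) and of ALOX5AP (0.62 and −0.59) lie clear of 0 on opposite sides in these comparisons, and of these 4 values only that of ALOX5 with CEP701 passed.

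The effects of CEP701 and of the shRNA against PRMT5 on ALOX5 differed, by 3.05 on the log2 scale (SE 0.30, 95% interval 2.37 to 3.73, adjusted p = 0.00698 in limma). ALOX5 ranked 4 of 14162 genes by unadjusted p here and was the only member of the 10 to pass, where 1.43% of all genes passed, 1.11% as higher. The drug effect was positive and the shRNA effect negative on every array relative to its own control. The call was lost without any 1 of the 4 drug-arm arrays, at adjusted p = 0.0657 and 0.0514 without DMSO replicate 1 or 2 and 0.107 and 0.112 without CEP701 replicate 1 or 2. The difference of effects was 1.64 for LTC4S (SE 0.45, adjusted p = 0.101), 1.20 for ALOX5AP (SE 0.34, adjusted p = 0.105) and 0.89 for PTGS1 (SE 0.30, adjusted p = 0.160). With the block in the shRNA arm these 3 genes passed as well (adjusted p = 9.35e-04, 0.00136 and 0.00172), as did 9.4% of all genes as higher and 7.94% as lower. Without scramble replicate 1, LTC4S (adjusted p = 0.0121) and PTGS1 (0.0386) passed, and without shPRMT5 replicate 2 ALOX5AP did (0.0305). For PTGS2 the difference was 0.60 (interval −0.18 to 1.38), and for the other 5 members it lay between −0.26 and 0.30. The median over the members was 0.45, beside 0.11 over all genes. In limma, 4 members and 2814 of the 14162 genes had an unadjusted p under 0.05.

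Between the control groups 6 of the 10 members were higher with scramble than with DMSO, 1 was lower and 3 did not pass. HPGDS, which makes prostaglandin D2, was 21.6-fold higher with scramble than with DMSO, ALOX5AP 12.3-fold, PTGS2 9.43-fold, ALOX5 4.31-fold, TBXAS1 3.11-fold and PTGS1 1.76-fold, and LTA4H was 1.72-fold lower. This comparison sets 1 arm against the other, so vector, selection, culture, experiment and source of cells cannot be told apart, and 45.8% of all genes passed, 25.5% as higher and 20.3% as lower. HPGDS signals of 1363 and 1543 with DMSO stood against 25587 and 38719 with scramble, a log2 difference of 4.43 (SE 0.22, adjusted p = 9.43e-07). It ranked 72 of all genes by unadjusted p. ALOX5AP differed by 3.62 (SE 0.24, adjusted p = 4.29e-06), PTGS2 by 3.24 (SE 0.24, adjusted p = 9.23e-06) and ALOX5 by 2.11 (SE 0.21, adjusted p = 5.56e-05). For these 4 genes every array of the shRNA arm lay above every DMSO array. Arrays of the control groups did not overlap in 8 members, 7 of them higher with scramble and LTA4H lower, where 40.8% of all genes were higher and 33.2% lower without overlap.

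TBXAS1 was higher by 1.64 (SE 0.40, adjusted p = 0.00839), a call lost without DMSO replicate 2 (0.0721) or scramble replicate 2 (0.0662). PTGS1 was higher by 0.82 (SE 0.22, adjusted p = 0.0120). That call was lost without DMSO replicate 1 (0.0740), DMSO replicate 2 (0.0530) or scramble replicate 2 (0.0817), and with median (0.0802) or poly-A (0.167) scaling. LTA4H was lower by 0.78 on the log2 scale, with a difference of −0.78 (SE 0.12, adjusted p = 7.42e-04), and kept its call in all 16 alternatives. LTC4S differed by 0.46 (adjusted p = 0.269), and by 1.02 (0.00540) without scramble replicate 1 but −0.11 (0.751) without replicate 2. ALOX12 differed by −0.88 (adjusted p = 0.177), and by −1.76 (0.00479) without scramble replicate 2 but 0.0049 (0.993) without replicate 1. HPGD differed by 0.31 (adjusted p = 0.0901). With the block in the shRNA arm LTC4S, ALOX12 and HPGD passed too, at adjusted p = 0.0289, 0.00380 and 0.0135. In that fit 7800 of the 14162 genes passed between the controls. The median over the members was 1.23, beside 0.11 over all genes. All 12 tested monocyte and granulocyte markers were higher with scramble than with DMSO, at a median log2 difference of 5.16, as were 7 of 8 mast cell and basophil markers and 4 of 7 eosinophil markers. The remaining mast cell and basophil marker, FCER1A, passed as lower (−1.29). Of 8 erythroid markers, AHSP (4.57) and EPOR (1.20) passed as higher and HBE1 as lower (−3.87). The part of all these markers in the member values was not tested.

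Ordered by group mean, ALOX5 ran from DMSO through the shRNA against PRMT5 and CEP701 to scramble, and no neighbouring groups overlapped. ALOX5AP ran from DMSO through CEP701 and the shRNA against PRMT5 to scramble, again without overlap between neighbours. The members thus fell into different patterns over the 4 groups. HPGDS, PTGS2 and TBXAS1 formed a low pair of drug-arm groups that overlapped and a high pair of shRNA-arm groups, which overlapped for HPGDS and TBXAS1 and not for PTGS2. LTA4H had the reverse order, with overlapping shRNA groups below DMSO and CEP701 on top. For LTC4S only the highest group, CEP701, was apart from its neighbour. PTGS1 separated only scramble from the group below it. For ALOX12 only the lowest groups, the shRNA against PRMT5 and CEP701, were apart, and for HPGD only the lowest, DMSO and CEP701. The 3 tested genes most like HPGDS over the 8 arrays were DLL1, CAPG and KCNQ1 (Pearson r = 0.999 each, on log2 values), and those most like ALOX5AP were ADGRL1 (0.999), SNX20 (0.998) and SEL1L (0.998). These correlations follow the gap between the arms and describe 8 arrays that share it.

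Replicates of the shRNA arm moved together. Of the 10 members, 7 were higher on the second pair of arrays in both groups, namely ALOX12, LTC4S, TBXAS1, PTGS1, HPGDS, ALOX5AP and HPGD, and PTGS2 and LTA4H were lower in both. ALOX12 differed most between replicates, by 1.76 on the log2 scale with scramble and 0.92 with the shRNA against PRMT5, followed by LTC4S (1.13 and 0.45) and TBXAS1 (0.95 and 0.86). ALOX5 moved in opposite directions, 0.29 with scramble and −0.38 with the shRNA. Over all genes 35.0% were higher on the second pair in both groups, and 4576 of 14162 were lower in both. The 10 megakaryocyte and platelet markers tested were all higher there (medians 1.20 and 0.80). So were 7 of 8 mast cell and basophil markers (0.82 and 0.85). The same held for 10 of 12 monocyte and granulocyte markers (0.35 and 0.70) and 5 of 7 eosinophil markers (0.36 and 0.28). Of the erythroid markers, 6 of 8 were lower in both (−0.77 and −1.49). Whether the lineage markers bear on the replicate spread of ALOX12 and TBXAS1 was not tested.

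**Figure D3:**
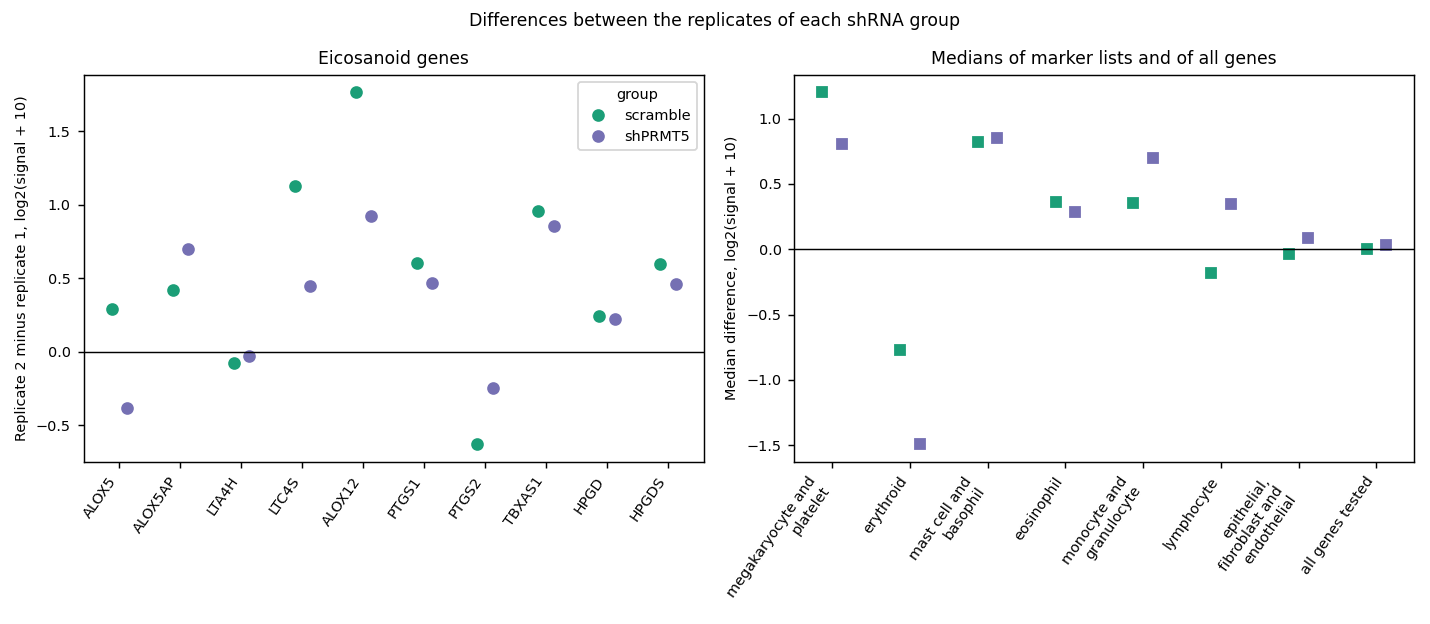
Replicate 2 minus replicate 1 in log2(signal + 10) for the 10 genes in the scramble group and the group with the shRNA against PRMT5. Points of the same gene lie on the same side of 0 except for ALOX5, and ALOX12 has the largest values, 1.76 and 0.92.

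Probe sets of a gene differed in the size of their differences and in places in sign. The 10 genes have 21 probe sets, 18 of which passed the filter, and 5 genes have 1 probe set. ALOX5 rests on 1 probe set, 204446_s_at, because its other 3 read between 2.96 and 60.4 on every array and did not pass. Tested in its place, none of the 3 gave an ALOX5 call. For PTGS1 the probe set 238669_at read 909 and 990 with DMSO, 2173 and 2381 with CEP701, 3633 and 9570 with scramble, and 2205 and 3848 with the shRNA against PRMT5. Its differences were 1.25 with CEP701 (adjusted p = 0.0932), −1.01 with the shRNA and 2.62 between controls (adjusted p = 5.85e-04), against 0.34, −0.55 and 0.82 at the brightest one, 205128_x_at, whose name marks probes that can match other transcripts. All 4 PTGS1 probe sets had the same signs. The second PTGS2 probe set, 1554997_a_at, read 41.0 and 28.2 with DMSO and 526 and 510 with scramble, a difference of 3.58 (adjusted p = 3.45e-05), and −0.91 with the shRNA against PRMT5. TBXAS1 had a second probe set, 236345_at, with differences of 0.27, 0.23 and 1.23 (adjusted p = 0.0361 for the last), so that only the difference between arms had the same sign in both. For HPGD the 4 probe sets ranged from −0.07 to 0.41 with CEP701, and 1 of them, 211549_s_at, passed between the controls (1.06, adjusted p = 0.0203). The brightest HPGD probe set lay between the 99.3 and 99.7 percentiles of each array, and whether it was near saturation is not given by these signals.

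**Figure D4:**
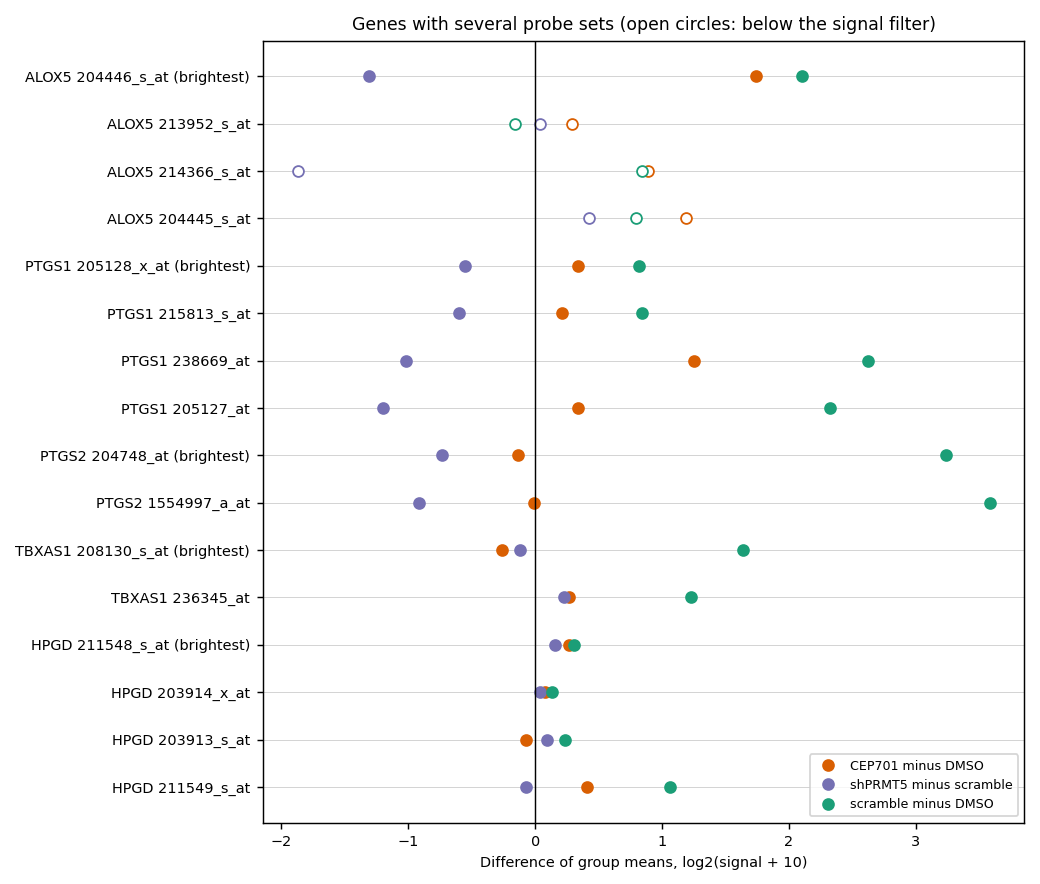
Log2 differences at each probe set that passed the filter for the genes with several probe sets, and for the dim ALOX5 probe sets, in 3 comparisons. PTGS1 and PTGS2 probe sets keep their sign but not their size, and the CEP701 and shPRMT5 values of TBXAS1 change sign between its 2 probe sets.

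Around these 10 genes, 52 of 70 listed genes that release arachidonic acid or make, move, break down or sense eicosanoids were tested. With CEP701, 2 passed as higher and 1 as lower, where 3.74% and 2.04% of all genes did, so the count is near the background. DPEP2, a dipeptidase that trims cysteinyl leukotrienes, read 12.7 and 9.55 with DMSO and 183 and 179 with CEP701, from below the filter to well above it (log2 difference 3.18, SE 0.56, adjusted p = 0.0175). CYSLTR1, the receptor for cysteinyl leukotrienes, read 442 and 443 with DMSO and 1220 and 866 with CEP701, a rise of 1.20 (SE 0.27, adjusted p = 0.0371). PTGES3, a co-chaperone of HSP90 that is also called cytosolic prostaglandin E synthase, fell from 33573 and 37063 to 24180 and 22490 (log2 difference −0.60, SE 0.13, adjusted p = 0.0314). Each of these 3 calls was lost without any 1 of the drug-arm arrays, at adjusted p of 0.102 to 0.146 for DPEP2, 0.138 to 0.214 for CYSLTR1 and 0.118 to 0.228 for PTGES3. CYSLTR1 also lost its call without the filter (0.0519) and under quantile (0.0732), median (0.0606) and poly-A (0.0978) scaling, and PTGES3 without the filter (0.0649). In the lists with no call the lowest p belonged to ACSL4, which activates arachidonic acid (0.90, adjusted p = 0.0683), to MGST3 (0.46, adjusted p = 0.0679) and to SLCO4A1 (−1.18, adjusted p = 0.0803). These 3 passed when only the drug arrays were fitted (adjusted p = 9.03e-04, 0.0126 and 5.65e-04) and with the block in the shRNA arm (0.00173, 0.00729 and 0.00622). The median over the 52 genes was 0.10, the same as over all genes.

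**Figure D5:**
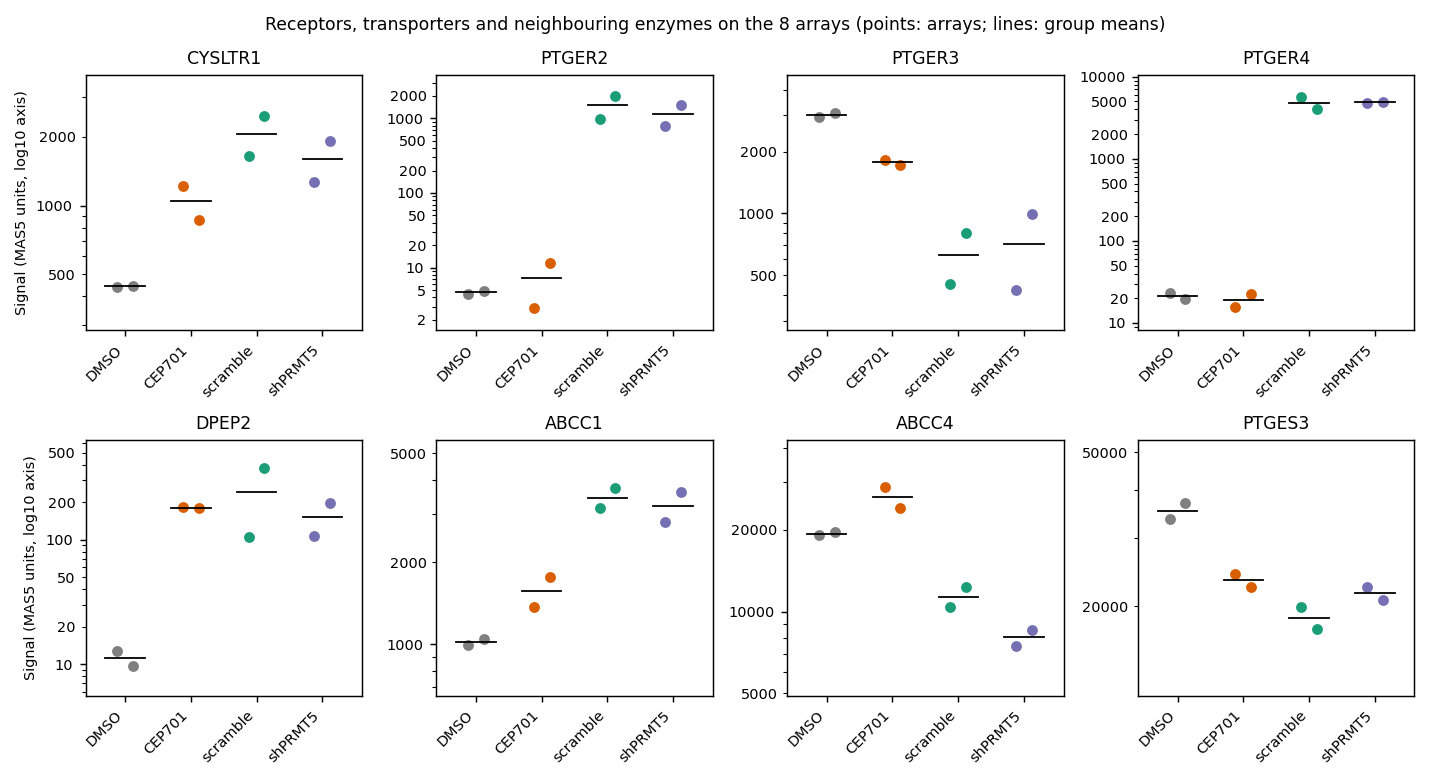
Deposited signal on each of the 8 arrays, on a log axis, for listed genes of the pathway outside the 10 members. DPEP2 and CYSLTR1 are higher with CEP701 than with DMSO, and PTGER2 and PTGER4 are dim on all drug-arm arrays and bright on all shRNA-arm arrays.

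No listed gene passed with the shRNA against PRMT5 in the limma fit of the 4 groups, nor did any for the difference of the effects. The genes of lowest p with the shRNA were MGLL (−0.64, adjusted p = 0.597), GPX4 (0.29, 0.722), PTGR1 (−0.31, 0.878), CBR3 (0.70, 0.597), the prostanoid exporter ABCC4 (−0.50, 0.424) and the receptor OXER1 (1.69, 0.250). OXER1 read 56.0 and 26.2 with scramble and 187 and 116 with the shRNA, near the filter. With the block in the shRNA arm OXER1 (adjusted p = 0.0314) and ABCC4 (0.0365) passed in this comparison. For the difference of the effects they were ACSL4 (1.55, adjusted p = 0.0701), DICER1 (−0.22, 0.623), DPEP2 (3.62, 0.0616), PTGES3 (−0.81, 0.0653), ABCC4 (0.94, 0.0613) and CYSLTR1 (1.56, 0.0763). With that block ACSL4 (adjusted p = 9.03e-04), DPEP2 (0.00151), PTGES3 (0.00261), ABCC4 (0.00169) and CYSLTR1 (0.00140) passed for the difference, in a fit where 9.4% of all genes passed as higher and 7.94% as lower. DPEP2 read 104 and 377 with scramble and 106 and 198 with the shRNA against PRMT5, groups that overlapped.

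Between the controls 19 of the 52 listed genes were higher with scramble and 10 lower, where 25.5% of all genes were higher and 20.3% lower. Their median was 0.60, beside 0.11 over all genes. The prostaglandin E2 receptor PTGER4 read 23.2 and 19.8 with DMSO, 15.6 and 22.8 with CEP701, 5663 and 4044 with scramble and 4768 and 4984 with the shRNA against PRMT5, a log2 difference of 7.25 between controls (adjusted p = 2.07e-07). PTGER2, another such receptor, differed by 6.59 (adjusted p = 6.07e-06), and CYSLTR1 by 2.16 (adjusted p = 1.91e-04). The receptor PTGER3 went the other way, from 2944 and 3071 with DMSO to 455 and 806 with scramble (−2.29, adjusted p = 8.10e-04). PTGER2 and PTGER4 were thus bright only on shRNA-arm arrays, and PTGER3 was highest with DMSO; with the mean of its kept probe sets PTGER3 did not pass (−1.02, adjusted p = 0.0827).

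The counts by list stand beside the same 25.5% and 20.3% of all genes, and the lists are small. Of the genes for arachidonic acid release, 5 of 13 were higher with scramble than with DMSO and none lower, among them the monoacylglycerol lipase MGLL (3.35), the desaturase FADS2 (1.46), ACSL4 (1.02) and the phospholipase PLA2G4C (2.84). ABCC1, which exports leukotriene C4, was higher by 1.74, PTGR1, which inactivates leukotriene B4, by 1.61 and DPEP2 by 3.32, 3 of the 4 tested in that list. Of the other lipoxygenases, lipoxygenase helpers and glutathione enzymes, 4 of 9 were higher and 2 lower. Among them MGST3 (1.53), GPX1 (1.09) and GPX4 (0.46) were higher, and MGST2, which can also make leukotriene C4, was lower (−1.29). Terminal prostanoid enzymes were split, 2 of 10 higher and 4 lower, with CBR1 (−1.99), PTGR3 (−1.33), PTGES3 (−0.92) and CBR3 (−1.55) the lower ones. The prostanoid transporters ABCC4 (−0.77) and SLCO4A1 (−1.04) were lower and SLCO3A1 (0.66) higher. All of these had an adjusted p under the 0.05 threshold in limma. Some calls rested on single arrays: without DMSO replicate 2 or scramble replicate 2 the adjusted p was 0.0693 and 0.0513 for ACSL4, 0.0885 and 0.0683 for PLA2G4C, and 0.0922 and 0.0656 for GPX4. SLCO4A1 lost its call without any 1 DMSO, CEP701 or scramble array (0.0616 to 0.136), and SLCO3A1 without DMSO replicate 1 (0.295), scramble replicate 2 (0.242) or either CEP701 array (0.0682 and 0.0679). With the mean of a gene's kept probe sets PTGR1 (0.53, adjusted p = 0.0907) and ABCC4 (−0.37, 0.0921) did not pass. Under other scalings of the arrays ACSL4 (poly-A), GPX4 (median and poly-A) and SLCO3A1 (quantile, median and poly-A) did not pass either. Without the filter on dim probe sets SLCO4A1 (adjusted p = 0.0524 in limma) and SLCO3A1 (0.0566) lost their calls.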

How the data were processed

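Affymetrix arrays were hybridized with biotin-labelled cRNA made from 200 ng of total RNA with a 3′ IVT kit, per the labels' protocols. What the authors deposited is a linear intensity per probe set, computed by MAS5 within Affymetrix Expression Console, per the submitters' processing notes. A version and a genome build are not given in the sources used here. The means of the 8 arrays, each with 2% of values left out at each end, averaged 500.1. The level of each single array is not given here. With 2 arrays a group, their number limits the precision.

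Probe sets were named from the platform annotation: 41097 name 1 gene, 1801 several and 11777 none, and 41043 symbols were updated through Entrez identifiers. The pseudocount of 10 was added before log2, so a fold understates the change of dim genes. Probe sets above 60.0 on at least 2 arrays were kept, the brightest per gene was used, and the 4 groups of 8 arrays were fitted together with limma 3.58.1 (lmFit, eBayes with trend) in R 4.3.3 with data.table (version 1.17.8), after a check on simulated data. Adjusted p-values are Benjamini-Hochberg over 14162 genes, with a threshold of 0.05. The scripts that read promoters and drew plots used Python 3.11.15 with numpy 2.4.6, pandas 2.3.3 and matplotlib 3.10.9.

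The shRNA arrays share a title suffix in pairs; deviations from the group means correlated at r = 0.323 within those pairs, and at −0.0115 between drug arrays of the same number. The block in the shRNA arm alone was added after this was seen. Promoter windows and motif shares come from RefSeq, for 9 of the 10 genes. The genes and lists were chosen with earlier results of these data known. Named genes are the 10 members at every probe set, PRMT5, and, of each of 6 pathway lists in each comparison, up to 4 genes past the threshold by lowest p, or else the gene of lowest p; the 3 most correlated genes were named for the 2 members of widest range. Alternatives changed the pseudocount, filter, scaling, probe set rule, arrays in the fit and block, and left out each array in turn.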

Additional observations from a re-analysis of the deposited data

Results flagged for a closer look

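The ALOX5 response differed between the arms: the CEP701 effect minus the shPRMT5 effect was 3.05 on the log2 scale (SE 0.30, adjusted p = 0.00698 in limma), from 1.74 with CEP701 and −1.31 with the shRNA against PRMT5. It stands out because the test of the difference itself passed. At this probe set it passed in 12 of 16 alternatives, with adjusted p from 1.07e-04 to 0.112, and failed in those that leave out 1 drug-arm array. It also failed at each of the other 3 ALOX5 probe sets, which did not pass the filter (adjusted p = 0.908, 0.136 and 0.780). ALOX5 was higher on 2 of 2 CEP701 arrays and lower on 2 of 2 arrays with the shRNA against PRMT5 than on any control array of its arm.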

How the results depend on the processing

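Over the 10 members, 704 combinations of gene, comparison and alternative were computed: 600 kept direction and side of the threshold, 23 lost a call, 41 gained 1 and 40 reversed. For other named genes the numbers were 702, 614, 47, 39 and 2. Members called with CEP701 numbered 1, and 5 with only the drug arrays, with the replicate block in both arms or with it in the shRNA arm only (0 to 2 leaving out an array). All genes called with CEP701 numbered 819, then 489 without the filter, 455 with quantile scaling, 537 with the mean of a gene's probe sets, 3208 with only the drug arrays, 3040 with the replicate block and 3155 with it in the shRNA arm only (6 to 1233 leaving out an array). With the shRNA against PRMT5 the members called numbered 0, and 1 with 50 added, 1 with the mean of probe sets, 3 with the replicate block and 3 with it in the shRNA arm only; all genes numbered 21, then 32 with 50 added, 0 with only the shRNA arrays, 212 and 247 with the 2 blocks (3 to 27 leaving out an array). For the difference of the effects the members numbered 1, and 4 with each block (0 to 3), and all genes 203, then 132 without the filter, 115 with quantile, 124 with median and 40 with poly-A scaling, 117 with the mean of probe sets, 2296 and 2456 with the 2 blocks (0 to 808). Between the controls, 7 members and 6486 genes were called, and no alternative moved these counts by over 1.5 times. There the replicate block took the members called from 7 to 10, and all genes called from 6486 to 7749. Calls with CEP701 split into 530 higher and 289 lower, 245 and 569 with median scaling and 86 and 984 with poly-A scaling, where the all-gene median went from 0.10 to −0.11 and −0.40. For the difference the split went from 157 and 46 to 75 and 49 and to 20 and 20, and between the controls from 3608 and 2878 to 2528 and 4051 and to 2020 and 3744.

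Poly-A scaling reversed, with CEP701, LTA4H (−0.23), PTGS1 (−0.17), HPGD (−0.23), HPGDS (−0.37) and MGST3 (−0.042), LTA4H (0.01) with the shRNA against PRMT5, LTA4H (−0.24), HPGD (−0.43) and HPGDS (−0.30) for the difference, and HPGD (−0.092) between the controls. Median scaling reversed HPGDS with CEP701 (−0.084) and HPGD for the difference (−0.082) and between the controls (−8.79e-04). The mean of probe sets reversed TBXAS1 (0.0035 with CEP701, 0.054 with the shRNA) and PTGR1 (0.11 with the shRNA). Other probe sets reversed ALOX5 (0.037 and 0.42 with the shRNA, −0.16 between the controls), TBXAS1 (0.27 with CEP701, 0.23 with the shRNA, 0.040 for the difference) and HPGD (−0.070 with CEP701, −0.17 for the difference, −0.069 with the shRNA). Leaving out an array gave TBXAS1 −0.54 to 0.019 with CEP701, −0.60 to 0.36 with the shRNA and −0.62 to 0.34 for the difference; ALOX12 −1.45 to 0.32, −1.14 to 0.62 and, between the controls, −1.76 to 0.0049; HPGDS −0.41 to 0.19 with the shRNA and −0.061 to 0.54 for the difference; LTA4H −0.066 to 0.0072 with the shRNA; HPGD −0.0097 to 0.23 for the difference; and LTC4S −0.11 to 1.02 between the controls. Of the values so replaced only ALOX5 between the controls had passed, and no reversed value passed. The cause was not tested.

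With 2 arrays a group, leaving out 1 leaves a group whose single array is assumed to vary like the others. Signals near the median of 60.0, as at 3 ALOX5 probe sets, give little precision.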
